A study of Mus musculus with 8 samples.

Results

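The regions described here are 9626 stretches of the mouse genome where native Nr5a2 had a called peak and none of the other 7 libraries had one. They were chosen by the presence of peaks and by the native Nr5a2 peak score, of which the highest in the region had to be at least 100. Regions were formed by merging the peaks of all 8 lists wherever peaks overlapped by at least 1 bp, which gave 306466 merged regions, so that the set makes up 3.14% of them. The assay was CUT&Tag against Flag, which directs Tn5 transposase by antibody to the chromatin that a Flag-tagged protein occupies. The cells were mouse embryonic fibroblasts (MEFs) on day 3 after reprogramming began. The MEFs came from OG2 mice, which carry an Oct4-GFP reporter, and the factors were delivered by retrovirus, so the tagged proteins are expressed from vectors and not from their own genes. The other libraries are Nr5a2BiD, native Oct4, Oct4BiD, native Sox2, Sox2BiD, native Nanog and NanogBiD, where BiD is a domain of SS18 that binds BRG1, fused to the N-terminus of the factor. There is 1 library per group, so no difference between libraries has a replicate. The labels do not say which other factors were present in the same cells. Membership rests on called peaks and scores: a region is a member because its peak passed the threshold in 1 list and none did in the others, which does not show that the other proteins were absent there.

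Nr5a2, also called LRH-1, is an orphan nuclear receptor that binds DNA as a monomer. It recognises an extended nuclear receptor site, in which the core AGGTCA is preceded by a few letters read by an extension of the DNA-binding domain. It is known for bile acid and cholesterol genes in the liver, for steroid hormone genes in the ovary and for digestive enzyme genes in the acinar pancreas, and it can take the place of Oct4 in reprogramming. In MEFs, open chromatin outside promoters is rich in sites of AP-1 and TEAD, factors of fibroblast enhancers.

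Sequence at the summit, the highest point of the peak, shows what many members share and many lack. The letters searched were TCAAGGTCA, TCAAGGCCA, CCAAGGTCA and CCAAGGCCA on both strands, called NR5A words below. The members of highest score that hold such a word within 50 bp of the summit are printed first, named by the nearest protein-coding gene and read from GRCm38.p6, the assembly of mm10. The member of highest score, in a UTR of Tmem246, also holds a word and is not printed. Capitals mark the NR5A word, which stands in reverse complement where the word lies on the minus strand.
Maf, chr8:115650174-115650274, plus strand: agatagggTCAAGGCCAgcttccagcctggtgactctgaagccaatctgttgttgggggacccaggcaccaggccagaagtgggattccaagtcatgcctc
Kcna3, chr3:107035858-107035958, plus strand: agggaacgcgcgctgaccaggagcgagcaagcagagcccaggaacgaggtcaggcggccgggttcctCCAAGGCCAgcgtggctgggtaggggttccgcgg
H2-M3, chr17:37270638-37270738, plus strand: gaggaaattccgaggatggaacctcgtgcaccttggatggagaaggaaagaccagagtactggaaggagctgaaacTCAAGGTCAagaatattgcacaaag
L3mbtl4, chr17:68266709-68266809, plus strand: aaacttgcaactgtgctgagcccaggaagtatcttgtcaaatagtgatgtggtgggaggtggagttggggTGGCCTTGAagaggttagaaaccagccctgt
Uggt1, chr1:36154395-36154495, plus strand: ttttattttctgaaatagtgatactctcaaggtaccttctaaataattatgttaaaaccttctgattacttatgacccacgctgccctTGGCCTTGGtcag
Aspscr1, chr11:120686240-120686340, plus strand: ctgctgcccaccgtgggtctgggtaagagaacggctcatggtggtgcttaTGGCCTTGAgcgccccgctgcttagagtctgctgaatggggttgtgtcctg
Psmg1, chr16:95860244-95860344, plus strand: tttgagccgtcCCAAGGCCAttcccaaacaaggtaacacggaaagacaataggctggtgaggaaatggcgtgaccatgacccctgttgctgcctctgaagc
Gm10803, chr2:93585988-93586088, plus strand: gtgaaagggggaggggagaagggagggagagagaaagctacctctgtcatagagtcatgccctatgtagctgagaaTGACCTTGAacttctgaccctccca
The members of highest score without an NR5A word in the same window are printed for comparison.
Myo3a, chr2:22338657-22338757, plus strand: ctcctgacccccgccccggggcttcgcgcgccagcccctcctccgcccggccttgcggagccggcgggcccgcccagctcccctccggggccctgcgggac
Intu, chr3:40542210-40542310, plus strand: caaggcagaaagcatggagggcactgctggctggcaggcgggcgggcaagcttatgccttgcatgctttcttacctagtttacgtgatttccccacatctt
Pole4, chr6:82686532-82686632, plus strand: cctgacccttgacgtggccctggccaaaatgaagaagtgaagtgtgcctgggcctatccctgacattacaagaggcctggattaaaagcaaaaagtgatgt
Rph3a, chr5:120969620-120969720, plus strand: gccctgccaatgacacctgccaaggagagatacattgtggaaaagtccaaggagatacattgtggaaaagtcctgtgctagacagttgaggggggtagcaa
The word TCAAGGCCA stood 38 bp before the summit near Maf and 4 bp after it near Aspscr1, so a word within the window could sit at its edge or near its centre. The window near Kcna3, a potassium channel gene, had a GC content of 70.3% and lay 0.26 kb from a start site, and the window near Myo3a, which had no word, had a GC content of 84.2% and lay in an intron 97.7 kb from the nearest coding start. The H2-M3 window lies in a coding exon of a gene of the MHC class I family, whose members resemble each other, so the placing of reads there is less certain.

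Among the 9625 members with sequence on placed chromosomes, 1294 had an NR5A word within 50 bp of the summit. This was 13.4% of the members, with an exact (Clopper-Pearson) 95% interval of 12.8 to 14.1%. In windows of the same length centred 500 bp to either side the share was 1.22%, an 11.0-fold difference (95% interval 9.58 to 12.7). Over all native Nr5a2 regions the share was 11% (percentage of 105984 regions), and in windows placed every 10 kb along chromosomes 1 to 19 and X it was 0.83%. All intervals given here cover counting error over regions within these lists and not the spread between cultures, and neighbouring regions are not independent.

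**Figure D1:**
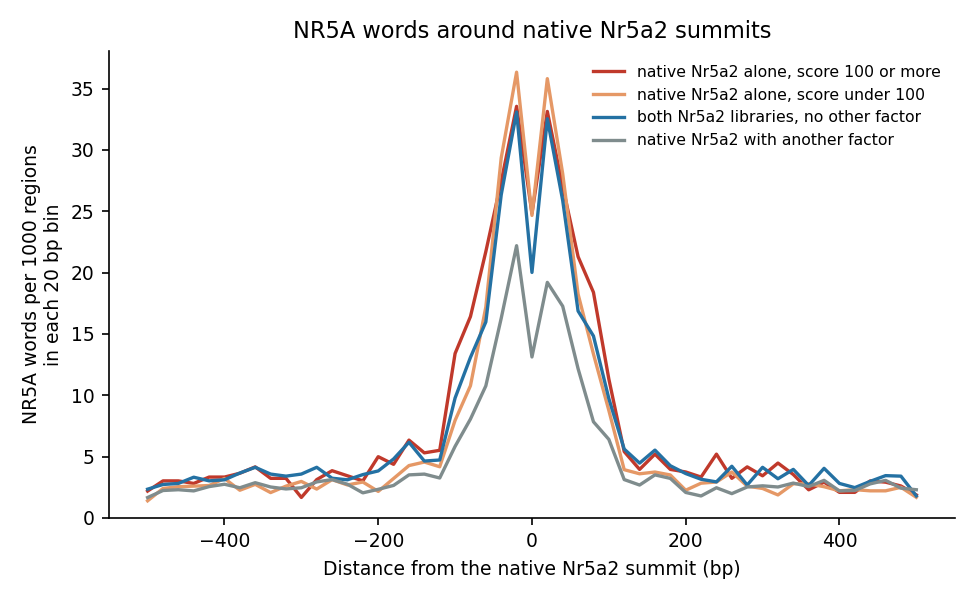
Number of NR5A words per 1000 regions in each 20 bp bin (vertical axis) against the distance of the word's centre from the native Nr5a2 summit in bp (horizontal axis), for 4 classes of native Nr5a2 regions drawn as lines. The red line of the strong regions of native Nr5a2 alone reaches 33.6 words per 1000 regions at -20 bp and 33.1 at 20 bp.

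The words stood beside the summit more often than on it. In the members, the bins centred at -20 bp and 20 bp held 33.6 and 33.1 words per 1000 regions, and the bin at 0 held 24.8. The same dip at the centre was present in the weaker native-alone regions, at 24.7 between 36.3 and 35.8. Of the members, 28.0% had a word within 250 bp of the summit, and the nearest of these words lay at a median distance of 49 bp. Taken over the whole merged region, with a median width of 786 bp, 34.1% had a word and 6.15% had more than 1.

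The share of native-alone regions with a word varied little with score. The score is 10 times the negative log10 of the peak caller's p-value, and it chose the members, so its own distribution is only described: it had a median of 135.6, an upper quartile of 174.3 and a maximum of 661.4. In native-alone regions, the NR5A share was 14.03% for scores from 50 to under 75 and 14.7% from 75 to under 100. It was 13.1%, 14.2%, 13.8% and 12.7% in the 4 bands of rising score above that. Members minus all native-alone regions under 100 gave a difference of -0.80 percentage points (Newcombe 95% interval -1.62 to 0.04). Of the 1000 members of highest score, 12.5% had a word, and of the highest 15, 3 did, those near Tmem246, Maf and Kcna3.

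The 5 members just inside the threshold of 100 had scores from 100 to 100.03 and summit heights from 12 to 19 tags, and 1 of them had an NR5A word. The 5 native-alone regions just outside had scores of 99.98 to 99.99 and heights from 14 to 29 tags, and 3 had a word.

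Members were then compared with the regions most like them, the 23539 with peaks of both Nr5a2 libraries and of no other factor and a native score of at least 100. There, 12.3% had an NR5A word, and the members' share was 1.18 percentage points higher (0.39 to 1.99). Within bands of equal native score, the interval of the difference held 0 in each of the 4 bands, with differences of 0.47, 1.63, 0.87 and 0.82 points. Against the 31409 regions with native Nr5a2 at a score of at least 100 and another factor, of which 8.07% had a word, the members' share was 5.38 points higher (4.64 to 6.13), and here the difference was above 0 in every band. The 759 strong regions of Nr5a2BiD alone had a share of 6.32% (4.70 to 8.30). Strong regions of Oct4, Sox2 or Nanog libraries alone had shares from 0.17% to 0.50%, below those of their own flanks.

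**Figure D2:**
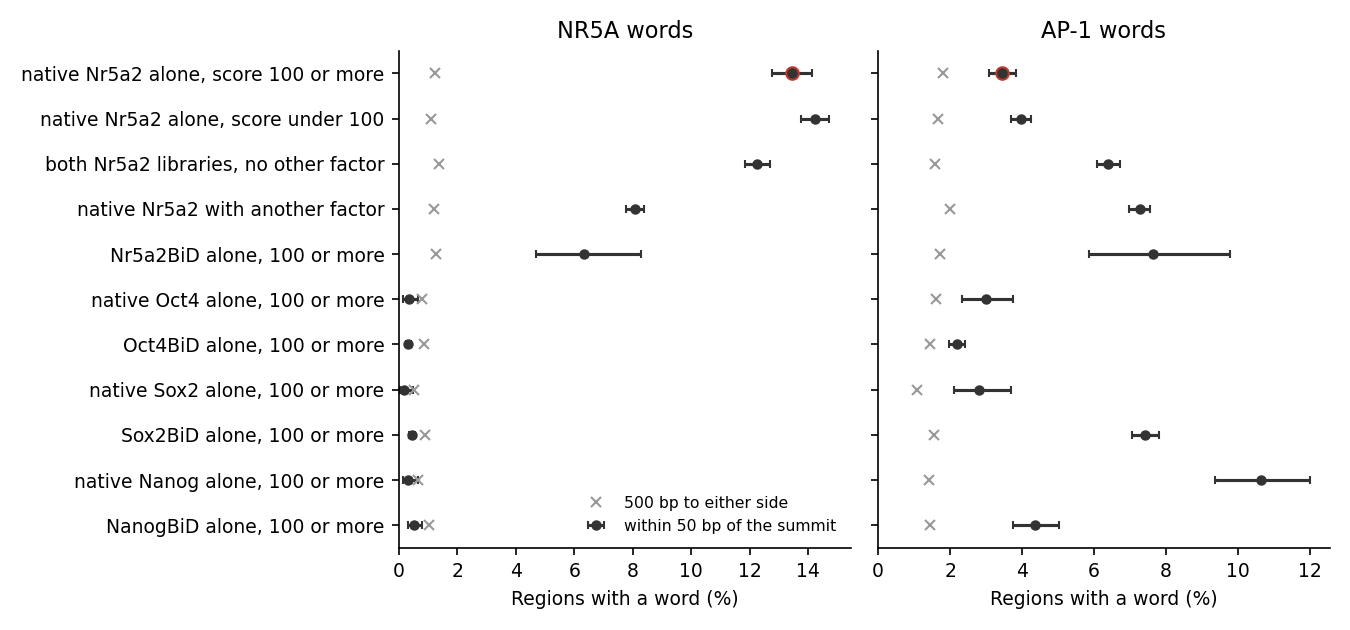
Percentage of regions with an NR5A word (left) or an AP-1 word (right) for 11 classes of regions (rows); points are shares within 50 bp of the summit with exact 95% intervals, and crosses are the mean shares in the windows 500 bp to either side. The strong regions of native Nr5a2 alone (red, top row) have 13.4% NR5A words and 3.44% AP-1 words, against 12.3% and 6.39% in regions of both Nr5a2 libraries.

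Part of the NR5A words lay in sequence that the genome file prints in lower case, which marks repeats and low-complexity sequence. Of the 1323 words in the members' summit windows, 420 lay on such masked sequence, or 31.7%. The weaker native-alone regions had 39.4% of their words masked and regions of both Nr5a2 libraries 25.1%. In members, the shares differed strongly between words: 56.6% of TCAAGGCCA words and 150 of the 375 TCAAGGTCA words were masked, against 7.37% of CCAAGGTCA and 8.08% of CCAAGGCCA words. This split was not particular to the summits. In the members' flanks 68.4% of TCAAGGCCA, 40% of TCAAGGTCA, 8.82% of CCAAGGTCA and 17.3% of CCAAGGCCA words were masked. Of all NR5A words in these flanks, 41.9% were masked. Counting only words off masked sequence, 9.27% of members (8.70 to 9.86) had one, against 0.712% in the flanks, a 13-fold difference. In regions of both Nr5a2 libraries the same count gave 9.28%, a difference of -0.0076 points (-0.69 to 0.69). Within 50 bp, the higher share of the members was therefore not present off masked sequence, while within 100 bp a difference of 0.95 points (0.12 to 1.80) remained there.

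The masked words stood in a common context. At each of the 3 positions on either side of the 420 masked words in members, 1 letter made up 53.8% to 81.7%. The most frequent stretch, with the word in capitals and 3 letters on each side, was chosen after its count was seen and is printed to show this shared context.
most frequent masked stretch: agtTCAAGGCCAgcc
It made up 70 of the 420 masked words in members, 16.7%, and 10.3% of the masked words in regions of both Nr5a2 libraries. In the weaker native-alone regions its share was higher than in members, at 19.2% (230 of 1198), so it is not particular to the strong regions. Off masked sequence no stretch of this length occurred more than 3 times among 903 words, and the most frequent letter at any of the 6 neighbouring positions reached 31.7%. The files hold no repeat names, so the family was not identified here. The authors removed repetitive reads and reads of mapping quality under 30, so repeat copies are seen only as far as reads could be placed.

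**Figure D3:**
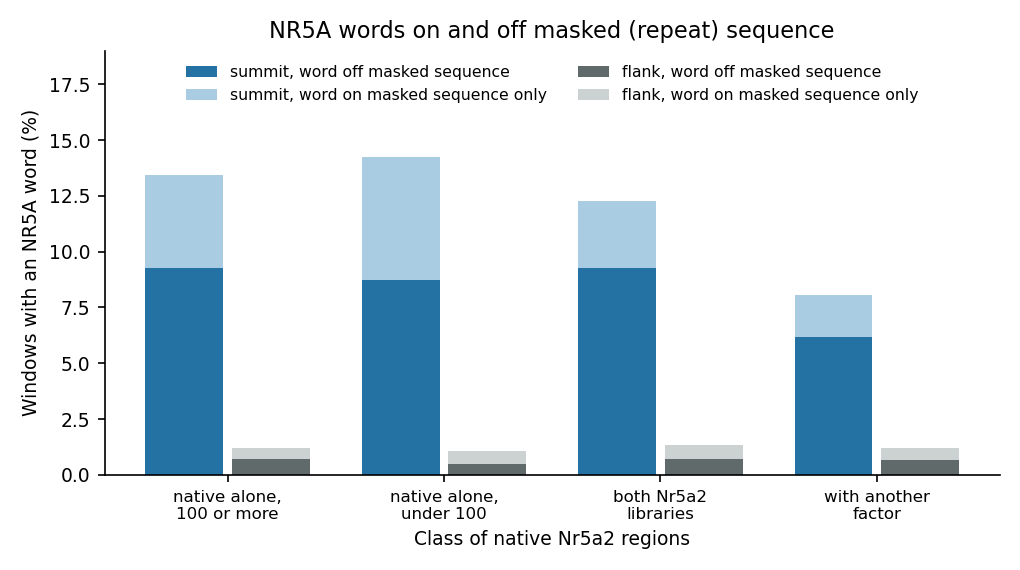
Percentage of windows with an NR5A word (vertical axis) at the summit (left, blue bars) and 500 bp to either side (right, grey bars) for 4 classes of native Nr5a2 regions; the dark part counts windows with a word off masked sequence and the light part those with words on masked sequence only. The dark part is 9.27% in strong regions of native Nr5a2 alone and 9.28% in regions of both Nr5a2 libraries.

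Each of the 4 words was more frequent at the members' summits than at their flanks, by 13.5-fold for TCAAGGTCA, 8.36-fold for TCAAGGCCA, 16.8-fold for CCAAGGTCA and 10.2-fold for CCAAGGCCA. To see which letters the summits tolerate, every word 1 letter away from TCAAGGTCA was counted, with positions counted from 1 at its 5′ end. Changes of the first letter left the word frequent at summits: T1C, T1G and T1A were 16.8-, 15.5- and 11.3-fold more frequent at summits than at flanks. Lower values were found for A3C, at 1.26-fold, and for some changes at the central positions, with 1.30-fold for G5A, 1.33-fold for G6A and 1.56-fold for G6C, against 3.50-fold for G5T and 4.47-fold for G6T. The change G5C was found in 0 of 9625 windows, which allows a share of up to 0.0312%. Its flank share was only 0.0364%, so the word was rare at flanks too. With any of these words, 26.4% of members had a match (flanks 3.33%). Without any preset word, 37 of the 1434 pairs of a 6-letter word and its reverse complement that at least 2% of members held were at least 2-fold more frequent at the summit. The leading ones were AAGGTC (25.8% of members, 5.22-fold), CAAGGT (27.3%, 4.94-fold) and TCAAGG (32.3%, 4.92-fold), all parts of the NR5A word, and the nuclear receptor core AGGTCA came at 25.6% and 3.88-fold. The lowest was AAAATA at 0.321-fold.

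The members held AP-1 words less often than regions of both Nr5a2 libraries did. AP-1, the dimer of Fos and Jun proteins, binds TGACTCA and TGAGTCA, which 3.44% of the members held within 50 bp of the summit (3.08 to 3.82) and 1.80% of their flanks, against 1.56% of the windows placed every 10 kb. In regions of both Nr5a2 libraries the share was 6.39%, so that the members were 2.96 points lower (-3.43 to -2.47), and the difference was of the same sign with an interval below 0 in each of the 4 score bands. Regions with another factor had 7.27%. The weaker native-alone regions, with 3.96%, stood near the members (difference -0.53, -0.97 to -0.06). Off masked sequence, the members' AP-1 share was lower than that of both Nr5a2 libraries by 2.67 points (-3.12 to -2.21).

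TEAD and RUNX words were also less frequent in the members than in regions of both Nr5a2 libraries, with smaller gaps. TEAD words (CATTCCA and CATTCCT) stood in 3.88% of members and 5.85% of regions of both Nr5a2 libraries (difference -1.98, -2.46 to -1.48), and RUNX words (AACCACA) in 1.62% and 2.32% (difference -0.70, -1.01 to -0.37). The octamer ATGCAAAT of Oct4 was found in 17 members, 0.18%, and in 0.47% of their flanks. It stood in 0.37% of all native Nr5a2 regions and in 0.56% of their flanks, so a share below the flanks is not particular to the members. The SOX word CCATTGTT stood in 0.17% of members and the NANOG word GCCATTA in 0.72%, against 0.27% and 0.73% of all native Nr5a2 regions. KLF words (GGGTGTGG and GGGCGTGG) stood in 1.88% of members against 1.27% of flanks, and 28 members matched the CTCF motif, 6.22-fold more than the flanks (2.94 to 13.2). Neither was particular to the members. Over all native Nr5a2 regions KLF words stood in 1.97%, and the CTCF motif in 0.39% (4.50-fold) against 0.29% of members. The word AGATAAG of the GATA family was at 0.75-fold of the flanks, in members and over all native Nr5a2 regions alike. The E-box word, searched as CAGCTG, was at 1.33-fold in members and at 1.53-fold over all native Nr5a2 regions. The ETS word CCGGAAGT was found in 5 members, too few to set against the flanks (0.77-fold, 0.27 to 2.16). A match or its absence describes the letters in the window and not a bound protein.

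**Figure D4:**
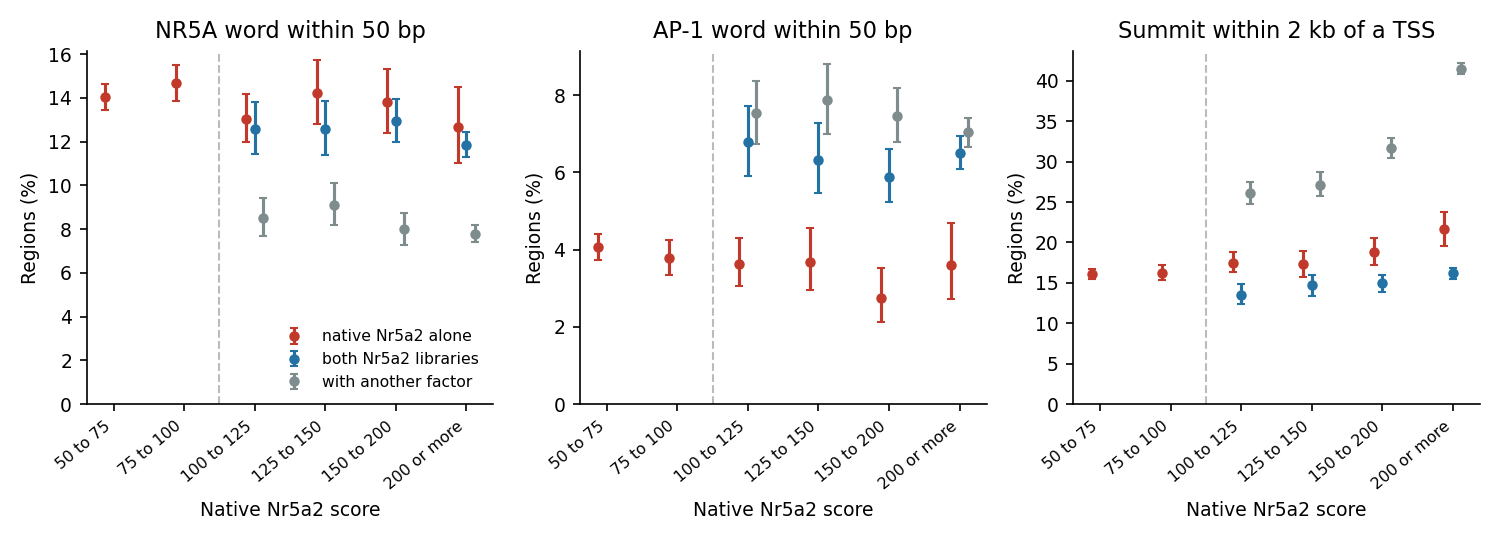
Percentage of regions (vertical axes) with an NR5A word, with an AP-1 word and with a summit within 2 kb of a transcription start site, by band of native Nr5a2 score (horizontal axes; the dashed line marks 100), with exact 95% intervals. Left of the dashed line stand the weaker native-alone regions; in the bands from 100 the AP-1 share of the native-alone regions (red, 2.75% to 3.69%) lies below that of regions of both Nr5a2 libraries (blue, 5.89% to 6.78%).

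By position in GENCODE M21, 51.6% of member summits lay in introns, 38.3% between genes, 4.06% on coding exons, 2.96% in UTRs and 3.04% on other exons. The median distance to a transcription start site (TSS) was 8.96 kb. A summit within 2 kb of a TSS was found for 18.4% of members (17.6 to 19.2), against 22.6% of all native Nr5a2 regions and 11.2% of the windows placed every 10 kb. Regions of both Nr5a2 libraries had 15.4%, so that members were 3.01 points higher (2.11 to 3.92). The weaker native-alone regions had 16.2%, and regions with another factor had 36.2%. The members were thus a mainly distal set. Their share at promoters was 17.5%, 17.3%, 18.8% and 21.6% in the 4 bands of rising score. Coding exons held 4.06% of members and 2.77% of regions of both Nr5a2 libraries (difference 1.30, 0.86 to 1.76). For the weaker native-alone regions the share was 3.06%. Masked sequence lay under 15.6% of member summits, against 12.4% for both Nr5a2 libraries (difference 3.12, 2.29 to 3.97) and 34.5% of the windows placed every 10 kb. The weaker native-alone regions had 17.4%, above the members (difference -1.85, -2.73 to -0.96). Of 32851 RefSeq promoters of the same assembly, from 250 bases before to 50 after the start, 2.22% held an NR5A word, and of the 136 that held a member summit, 18 did, or 13.2%.

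The GC content at the summit was higher in native Nr5a2 regions than in strong regions found in any other single library alone. The median over members was 51.5% (quartiles 46.5 and 55.4%), against 50.5% for regions of both Nr5a2 libraries. Native Nr5a2 regions with a peak of another factor had 52.5%, so the contrast does not extend to all regions of the other factors. Strong regions of a single other library had medians from 37.6% for Oct4BiD to 44.6% for Nr5a2BiD. The windows placed every 10 kb had a median of 41.6%. Tn5 cutting and amplification depend on base composition, and the part of this in the peaks was not tested.

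Most members had a peak of another library in their neighbourhood. The median distance from a member to the nearest peak of any other library was 2.02 kb, and 30.2% of members had one within 1 kb. For the weaker native-alone regions the median was 1.95 kb. The nearest Nr5a2BiD peak was at a median of 7.49 kb, with 7.87% within 1 kb and 39.1% over 10 kb away. For the weaker native-alone regions this median was 7.01 kb, with 9.62% within 1 kb. Peaks of Sox2BiD and Oct4BiD were nearer to members, at medians of 5.54 and 6.69 kb, and those of the remaining libraries were farther. Between members themselves the median distance was 52.3 kb. The NR5A share was 14.5% (12.1 to 17.2) in members with an Nr5a2BiD peak within 1 kb and 13% (11.9 to 14.1) in those over 10 kb from one, intervals that overlap. Members over 1 kb from any other peak had 13.2%, close to all members. On the chromosomes, density ran from 2.83 members per Mb on chromosome 3 to 5.35 on chromosome 11 among autosomes, with 1.10 on X and 1 member on Y. Per 100 native Nr5a2 regions the autosomes held 8.04 to 9.93 members and X 8.88.

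The 15 members of highest score had scores from 485.9 to 661.4 and heights from 27 to 55 tags. The highest lay at chr4:49596831-49597921 in a UTR of Tmem246, 0.20 kb from its TSS, with a score of 661.4, a height of 37 tags and 1 NR5A word. It ended 0.23 kb from a peak of another library, so its place in the set rests on a narrow gap. The second, at chr2:22338329-22339213 with a score of 599.5, lay in an intron of Myo3a, an unconventional myosin gene. The third, at chr8:115649717-115650845 with 552.4, lay between genes 56.9 kb from the start of Maf, a basic leucine zipper factor, and 11.8 kb from the nearest other peak. The next members lay in an intron of Intu (538.7), in an intron of Pole4 (537.8), 0.26 kb from the TSS of Kcna3 (534.3), in an intron of Rph3a (533.0) and 0.16 kb from the TSS of Col22a1 (521.7). Others were near Trim29 (517.7), on the coding exon of Sox1 (516.5), near Raet1d (507.0), Mast1 (498.4), Ankrd34b (495.9) and Vxn (485.9). Of the 15, 4 had a peak of another library within 1 kb.

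The Sox1 member lies on a coding exon of a gene of developmental transcription that is related to Sox2, which was delivered in other libraries. It is at chr8:12396248-12397265, its summit height was 45 tags, and the nearest other peak was 10 kb away. The genes of the tagged factors and of SS18 held no member: 0 members overlapped Nr5a2, Pou5f1, Sox2, Nanog or Ss18. Members lie a median of 52.3 kb apart and the share of all genes that hold a member is not given here. The absence is therefore not read as a result about these genes.

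Near genes, members were common everywhere. Of 21938 protein-coding genes, 14277 had a member summit within 100 kb of a TSS, so that the background is 65.1%. The gene with most was Nav2, neuron navigator 2, with 11, and their scores ran from 110.0 to 300.5. Gse1 had 10. Samd4b, Hand1, Nos1ap and the locus of Actr5 and Ppp1r16b had 9 each. Sap30l, the locus of Bpifb2 and Sun5, and Hivep3 had 8. Hand1, a heart and placenta factor, and Sap30l lie side by side on chromosome 11 and share members. Of these loci, that of Bpifb2 and Sun5 had the most members with an NR5A word, 4 of 8.

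**Figure D5:**
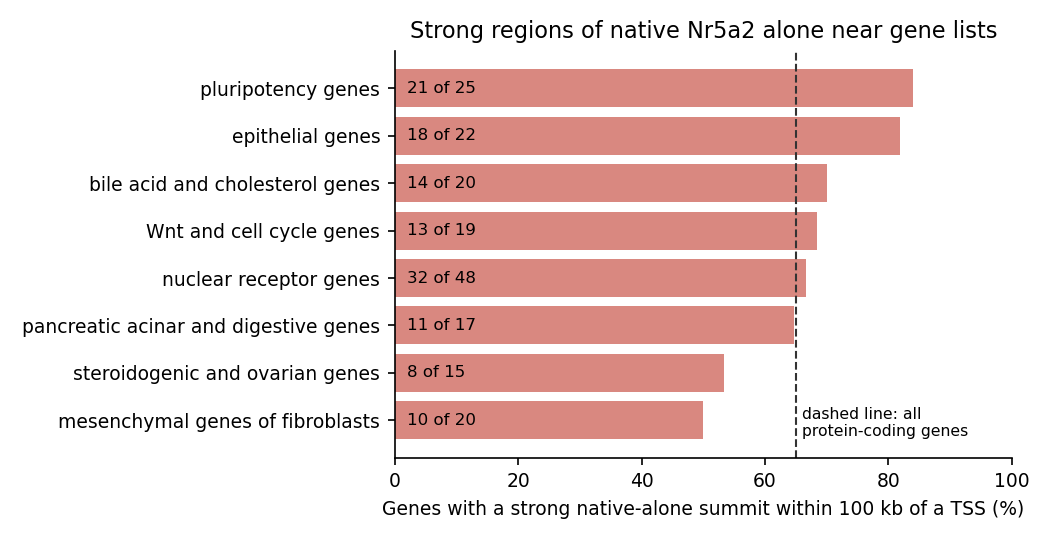
Percentage of the genes of 8 lists (rows) with a strong native-alone summit within 100 kb of a TSS (horizontal axis); numbers in the bars are genes with a member of genes in the list, and the dashed line is the share of all protein-coding genes. Pluripotency genes (21 of 25) and epithelial genes (18 of 22) lie right of the line at 65.1%, and mesenchymal genes (10 of 20) lie left of it.

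For the genes Nr5a2 is known for, the counts are given at 100 kb and at 50 kb, where the share over all protein-coding genes was 48.4%. Of 20 bile acid and cholesterol genes, 14 had a member within 100 kb (70.0%, median 2 members per gene, against 1 over all genes). The same number, 14, had one within 50 kb. Scarb1, the receptor that takes up cholesterol from HDL, had 6 members with scores from 115.0 to 149.8, of which 2 held an NR5A word. Hnf4a, a regulator of liver genes, had 5, with scores up to 199.3. Abcb11, the bile salt export pump, had 4 members, 2 with an NR5A word, none within 43 kb of its TSS.

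Of 15 steroidogenic and ovarian genes, 8 had a member within 100 kb (53.3%) and 4 within 50 kb (26.7%). Cyp17a1, an enzyme of androgen synthesis, and Inha, the inhibin alpha subunit, had 4 each. Star, which moves cholesterol into mitochondria, had 3, of which 2 held an NR5A word. Cyp19a1, the aromatase, had 2, with scores of 253.1 and 151.6. A member within 2 kb of a TSS was found for 0 of the 15, which is near the 5.78% of all protein-coding genes for a list of this size. The mesenchymal list had 0 of 20 and the Wnt and cell cycle list 0 of 19. The other lists had 2 of 48 (nuclear receptor), 2 of 22 (epithelial), 2 of 17 (pancreatic), 3 of 20 (bile acid and cholesterol) and 5 of 25 (pluripotency). Of 17 pancreatic acinar and digestive genes, 11 had a member within 100 kb (64.7%) and 8 within 50 kb. Cel, a lipase of pancreatic juice, had 5, the highest with a score of 315.6 at 6.74 kb from its TSS. Cela1 had 4, and Ctrl and Bhlha15 had 2 each.

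Of 25 pluripotency genes, 21 had a member within 100 kb (84.0%), with a median of 1 member per gene, the same as over all genes, and 17 within 50 kb (68.0%). Their share was the highest of the 8 lists at 100 kb but not at 50 kb, where the bile acid and epithelial lists stood higher. Tdgf1, a co-receptor of Nodal, had 5 members, up to a score of 391.6 at 55.7 kb upstream of its TSS. Tfcp2l1, a factor of naive pluripotency, had 4, of which 1, at chr1:118627299-118628175 with a score of 192.9, had its summit 0.17 kb upstream of its TSS. Dppa5a had 3, the highest, with a score of 224.7, at 3.55 kb upstream. Lin28a, an RNA-binding protein that blocks let-7 maturation, had 3, with scores from 111.4 to 160.4. None of the members near these 4 of the 21 genes held an NR5A word within 50 bp of the summit. The share over all members was 13.4%, and the members near these 4 genes are too few to set against it.

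Epithelial genes had 18 of 22, or 81.8%, with a median of 2 members, and 15 of 22 within 50 kb. Epcam, an epithelial adhesion molecule, had 7 members with scores from 100.95 to 293.0. Crb3, of apical polarity, had 5. Ovol1 had 4, of which 1 scored 411.9 at 34.0 kb from its TSS, and the claudin gene Cldn4 had 4, of which 1 had its summit 1.88 kb from its TSS. Of 20 mesenchymal genes of fibroblasts, 10 had a member within 100 kb (50%) and 6 within 50 kb. Snai1 had 3, Sparc and Thy1 had 2 each and Twist2 had 1. Of 48 nuclear receptor genes, 32 had a member (66.7%), with 5 at Nr1h2, which encodes an oxysterol receptor, and 4 each at Nr4a1 and Rxrb, beside Hnf4a. Of 19 Wnt and cell cycle genes, 13 had a member (68.4%), with 3 each at Wnt3, Cdk4, Ctnnb1 and Tcf7l1. The lists hold 15 to 48 genes, neighbouring genes share members, and gene length and gene density were not matched, so no list is called apart from the rest.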

How the data were processed

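Flag CUT&Tag libraries of MEFs at day 3 were analysed from 8 deposited peak lists, 1 per group. By the methods of the study, Trim Galore 0.6.4 served the authors for trimming and bowtie2 2.4.5 for alignment against mm10. They removed repetitive reads, mitochondrial reads and reads of mapping quality under 30 with SAMtools 1.16.1, and called peaks with MACS 1.4.2 (1 tag per position, no shift model, shift size 25 bp). No control library is named. The methods text says that replicates were merged, while its reporting form states a single experiment, and the lists do not settle this. The deposited score is the authors' 10 times negative log10 of the p-value, and its minimum of 50 corresponds to p = 1e-05. Heights at summits, as deposited, are a signal counted in whole tags without scaling to depth. The lists hold no read totals. The study states the read pairs of each library, and these were not used in any calculation here. By that statement the native library had fewer pairs than the BiD library for Nr5a2 and Nanog, and more for Oct4 and Sox2. Scores were not scaled to depth. Whether absence of a peak in a list depends on depth was not tested.

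Peaks were merged and compared with the RefSeq GRCm38.p6 sequence and GENCODE M21 in Python 3.11.15 (NumPy 2.4.6, pandas 2.3.3, SciPy 1.17.1, matplotlib 3.10.9). Motif words were counted on both strands within 50 bp of the summit and in windows centred 500 bp to either side. Shares carry exact 95% intervals and differences Newcombe 95% intervals, and no test was made, since a group has 1 library. The functions were tested on simulated data. Members and gene lists were chosen with earlier results of these data known. The 15 members of highest score, the 5 nearest to the threshold on each side, the 10 genes with most members and up to 4 genes per list were named, of which a few are not reported here. Alternatives were other score thresholds, ways of merging, windows, flanks, words, promoter distances and gene distances, and leaving out each of the other 7 libraries. Counts off masked sequence, words 1 letter from TCAAGGTCA and the alternatives for AP-1 were added after the data were seen. Promoter sequences are from RefSeq too.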

Additional observations from a re-analysis of the deposited data

Results flagged for a closer look

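The native and BiD libraries of Nr5a2 stood in the opposite order to those of the other factors. Native Nr5a2 had 9626 strong regions found in no other library and Nr5a2BiD had 759, a difference of 8867. Native Oct4 had 2376 such regions against 16055 of Oct4BiD. Native Sox2 had 1813 against 19330 of Sox2BiD, and native Nanog 2164 against 3993 of NanogBiD. With 1 library per group, this difference between factors was not tested. The numbers of called peaks were ordered in the same way: native Nr5a2 had 108030 peaks and Nr5a2BiD 76217. Native Oct4 had 54794 and Oct4BiD 93978, native Sox2 58162 and Sox2BiD 120594, native Nanog 73465 and NanogBiD 75769. By the read pairs the study states, the native library was the less deeply sequenced for Nr5a2 and Nanog and the more deeply sequenced for Oct4 and Sox2. The part of peak number in the number of regions was not tested. As a share of each library's own regions, the strong regions found in it alone made up 9.08% for native Nr5a2 and 1.02% for Nr5a2BiD. The shares were 4.41% for native Oct4 and 17.4% for Oct4BiD, and 3.17% for native Sox2 and 16.4% for Sox2BiD. For native Nanog and NanogBiD they were 3.01% and 5.36%.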

How the results depend on the processing

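No paired analysis was possible because each group holds 1 library. The number of members was 16588, 3714 and 1498 at scores of 75, 150 and 200, and 16125 with summits extended by 100 bp in place of whole peaks. Leaving out 1 other library gave 9667 to 33543 members, where the highest count is without Nr5a2BiD and the others reach at most 10431. Merging peaks up to 200 bp apart gave 8862. A height of 20 tags in place of the score gave 8841, of which 5652 were members, so score and height choose different regions.

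The NR5A share was 5.92% within 25 bp, 22.0% within 100 bp, 25.6% for AGGTCA, 3.84% for TCAAGGTCA alone, 12.7% at a score of 200 and 26.4% with 1 letter changed. Off masked sequence it was 9.27%, and 15.01% with a window of 100 bp. Without 1 library it was 12.6% to 13.5%. The difference from regions of both Nr5a2 libraries turned from 1.18 points to -0.31 for AGGTCA and to -0.0076 off masked sequence, and was 3.61 within 100 bp (2.65 to 4.58), of which 0.95 (0.12 to 1.80) remained off masked sequence. The AP-1 share was 1.44% within 25 bp and 6.88% within 100 bp, below that of both Nr5a2 libraries in each setting tried.

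The promoter share was 6.79% at 500 bp, 34.5% at 5 kb, 13.4% for coding TSSs, and 19.95% and 21.6% at scores of 150 and 200. It was 16.3% to 18.9% without 1 library. Within 50 kb, 4 of 15 steroidogenic, 6 of 20 mesenchymal and 14 of 20 bile acid genes had a member, against 48.4% of all protein-coding genes. The lists are not scaled to depth, and the part of depth in the absence of a peak was not tested.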
